A study of Homo sapiens with 4 samples.

Results

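PAX8, PAX2, SOX17, SOX9, FOXA1, FOXA2, GATA2, EMX2, MSX1 and WT1 encode transcription factors of Mullerian and endometrial epithelial identity and pioneer factors. They were taken by symbol as a list of 10 genes among the 26364 gene symbols of the deposited count table. The cells were Ishikawa, a human endometrioid adenocarcinoma line, and all of them carried the Y537S mutation of ESR1, which encodes estrogen receptor alpha. Per the labels, cells of 2 mutant clones were kept in hormone-deprived medium for at least 5 days. Treatment was for 8 h, with 10 nM estradiol (E2) or with its vehicle alone, DMSO at 0.1%. This gave a DMSO group of 2 libraries and an E2 group of 2 libraries, 1 from each clone. No cells without the mutation were analysed here, so every value below is from mutant cells.

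The columns of the table carry the tags A4 and B212, which no label mentions, and each tag has 1 DMSO and 1 E2 library. The tags are taken here as the clones, although nothing ties them to the numbers 1 and 2 that the labels give the clones. A tag is a single clone, so a difference between tags describes these cells only. Each tag has 1 library per treatment, so no condition is repeated within a clone. With tag and treatment both in the fit, the p-values rest on how far the treatment ratio differs between the tags, part of which may be technical. With treatment alone in the fit, they rest on the difference between the tags. In both fits the spread of a gene was drawn towards that of the other genes tested. A small p-value or SE is therefore not a measure of how well that gene's own libraries repeat. The labels do not say how far the cultures were independent. Libraries held between 71575816 and 85222856 counts, and 15599 genes passed the expression filter. Differences between the tags exceeded those between treatments, and the tags separated on the first principal component.

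The uterus, the oviduct and the upper vagina arise from the Mullerian duct, an epithelial tube of the embryo. Paired-box factors (PAX2, PAX8) and homeobox factors (EMX2) act early in that duct, and PAX8 is kept in many gynaecological carcinomas, where pathologists use it as a lineage marker. SOX17, FOXA2 and SOX9 are tied to the uterine glands, and MSX1 and GATA2 to the response of the uterus to progesterone. FOXA1, FOXA2 and GATA2 are called pioneer factors because they can bind DNA in closed chromatin. FOXA1 is a known partner of the estrogen receptor.

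The epithelial label was checked first. All 10 epithelial markers, among them EPCAM, CDH1, KRT8 and KRT18, passed the expression filter, and their summed level was 2317 to 3019 CPM (read counts scaled to the library total with TMM factors) in the 4 libraries. Most of that sum came from the 4 named. KRT7 (7.23 to 9.11 CPM) and MUC1 (2.27 to 4.22 CPM) were the lowest of the 10. Of 14 stromal and mesenchymal markers 8 passed the expression filter. COL1A1, a fibrillar collagen, had 2531 to 9363 counts (34.5 to 128 CPM), TWIST1 931 to 1047 counts and ZEB1 103 to 543. PRRX1 had 0 counts in every library, and TCF21 and DCN had at most 1. Of 7 endothelial and immune markers 3 passed it, VWF (167 to 372 counts), CD68 (92 to 176) and PTPRC (25 to 37). PECAM1, CD3E and MS4A1 had 0 counts in every library. RNA of some mesenchymal, endothelial and immune markers was thus measured beside that of the epithelial ones.

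Of the 10 genes, 8 passed the expression filter and 2 did not. FOXA2, the pioneer factor of uterine glands, had 0 counts in each of the 4 libraries. At these depths a count of 0 allows up to 3 counts, or 0.0352 to 0.0410 CPM, and this limit covers counting error only. PAX2, the close relative of PAX8 in the early Mullerian duct, had 0 counts in both DMSO libraries and 1 count in each E2 library. Both genes were thus at or under the detection limit, and no ratio is given for them.

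Per kilobase of transcript, MSX1 was the most abundant of the 8 genes. MSX1, a homeobox factor of the uterine epithelium, had 149 to 216 CPM per kilobase over the 4 libraries, a range that lay wholly above that of the next gene. PAX8 (41.9 to 75.8 CPM per kilobase) and EMX2 (38.1 to 68.3) followed, and their ranges overlapped. SOX9 (22.3 to 34.4 CPM per kilobase) and SOX17 (15.1 to 32.0) formed the next step, again with overlapping ranges. FOXA1 had 4.84 to 5.57 CPM per kilobase, below every library of SOX17. GATA2 (2.85 to 3.44 CPM per kilobase) and WT1 (1.04 to 2.91) were lowest and overlapped each other. With coding length in place of transcript length, PAX8 and EMX2 changed places and the order of the other 6 was the same. Lengths came from 1 GENCODE transcript per gene, which may not be the isoform these cells use.

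**Figure D1:**
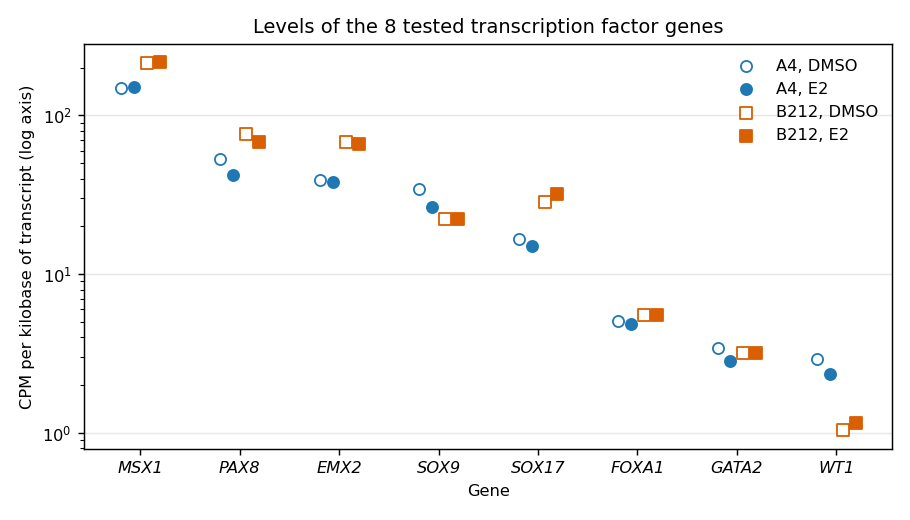
Level of each of the 8 tested genes in each of the 4 libraries, in CPM per kilobase of transcript on a log axis, with open symbols for DMSO and filled symbols for E2. MSX1 lies above 149 in every library, FOXA1, GATA2 and WT1 reach at most 5.57 in any library, and the B212 squares of PAX8, EMX2, SOX17 and MSX1 stand above the A4 circles.

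Close relatives of these factors were examined for which members of each family had RNA in these cells. Of the 31 paralogs listed (PAX, SOX, FOXA, GATA, EMX and MSX genes, and the EGR zinc finger genes related to WT1), 15 passed the expression filter and 4 had 0 counts in every library. Beside PAX8, the paired-box genes PAX6 (1638 to 2187 counts) and PAX9 (381 to 573 counts) were present. PAX1 and PAX7 had 0 counts, and PAX3, PAX4 and PAX5 had at most 2. EMX1 had at most 2 counts and MSX2 at most 3, so EMX2 and MSX1 were the expressed copies of their pairs. GATA3 had at most 1 count and GATA4 had 0, while GATA6 had 41 to 99 and GATA5, which also passed the filter, had 2 to 18. FOXA3 had 4 to 9 counts, so FOXA1 was the only FOXA gene of the 3 to pass the filter. Among SOX genes, SOX12 (15.9 to 18.5 CPM per kilobase) and SOX4 (10.3 to 17.5) overlapped the range of SOX17. SOX2 had at most 2 counts and SOX10 had 1 count in each library. LHX1, an early Mullerian duct factor, had 2 to 11 counts.

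The comparison of the tags asked how far these identity factors differ between clones that share the receptor mutation. B212 had more PAX8, SOX17, EMX2 and MSX1 RNA than A4, by 1.43-fold to 1.91-fold, and less WT1 and SOX9 RNA. FOXA1 and GATA2 did not pass the test. Of the 8 genes tested, 6 were called by edgeR's quasi-likelihood test with treatment as a covariate at a Benjamini-Hochberg threshold of 0.05, of which 4 had more RNA in B212 and 2 less. Over all genes tested the same rule called 51.0%, 25.2% as higher and 25.8% as lower, so a call between these tags was common. That is 3927 genes higher and 4023 lower, and 4761 and 3176 with library size as the only scaling. The median log2 fold change of the 8 genes was 0.34, against 0.0042 over all genes tested. The 2 libraries of B212 lay wholly outside those of A4 for 7 of the 8 genes, and so did 67.5% of all genes tested. In bulk RNA, fewer cells of a kind and less RNA per cell cannot be told apart.

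SOX17, an HMG-box factor needed for uterine gland formation, had 38.9 CPM with DMSO and 35.3 CPM with E2 in A4, against 66.6 and 74.9 CPM in B212. Both B212 libraries were above both A4 libraries, whatever the treatment. B212 exceeded A4 by 0.93 ± 0.082 (SE) on the log2 scale (edgeR adjusted p-value 1.19e-08). EMX2, the homeobox factor of the urogenital ducts, had 113 CPM with DMSO and 110.3 CPM with E2 in A4, against 198 and 190.8 CPM in B212. Treatment moved it little in either tag, and the log2 fold change between the tags was 0.80 ± 0.069 (edgeR adjusted p-value 7.98e-09).

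PAX8, the paired-box lineage factor, had 219 CPM with DMSO and 174 CPM with E2 in A4, against 315 and 281 CPM in B212. The tags did not overlap, and in each tag the E2 library was the lower of the pair. Its log2 fold change between the tags was 0.61 ± 0.072 (edgeR adjusted p-value 7.81e-07). MSX1 had 289 CPM with DMSO and 293 CPM with E2 in A4, against 414 and 418 CPM in B212. The libraries of a tag were nearly equal, and the log2 fold change was 0.51 ± 0.070 (edgeR adjusted p-value 4.75e-06).

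WT1, a zinc finger factor known from the urogenital ridge and the uterine stroma, went the other way. It had 9.09 CPM with DMSO and 7.35 CPM with E2 in A4, against 3.25 and 3.59 CPM in B212, so both B212 libraries were below both A4 libraries. Its counts were 666 and 603 in A4 and 277 and 263 in B212. The log2 fold change was -1.26 ± 0.13 (edgeR adjusted p-value 1.40e-07), and WT1 was the only gene of the 8 past 1 on the log2 scale. SOX9, an HMG-box factor of gland progenitors, had 135 CPM with DMSO and 104 CPM with E2 in A4, against 88.2 and 87.9 CPM in B212. Its highest library was A4 with DMSO, and the A4 library with E2 lay between that and B212. The log2 fold change was -0.43 ± 0.080 (edgeR adjusted p-value 0.000154).

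FOXA1 had 14.4 CPM (DMSO) and 13.8 CPM (E2) in A4 and 15.9 CPM in both B212 libraries. Its log2 fold change was 0.17 ± 0.092, with an edgeR adjusted p-value of 0.132. Scaled by library size only, FOXA1 had 0.24 (edgeR adjusted p-value 0.0430), and that alone of the scalings tried made FOXA1 a call. GATA2, a zinc finger pioneer factor, had 11.6 CPM (DMSO) and 9.58 CPM (E2) in A4 and 10.8 CPM in both B212 libraries. The tags overlapped, and the log2 fold change was 0.035 ± 0.11 (edgeR adjusted p-value 0.805). Without the B212 DMSO library, and then with no treatment term, 3 of the 8 genes were called. PAX8, SOX9 and MSX1 lost the call there, at edgeR adjusted p-values of 0.0719, 0.0912 and 0.0618, while their log2 fold changes were 0.49, -0.47 and 0.49. SOX9 also lost it without the A4 DMSO library (log2 fold change -0.25, edgeR adjusted p-value 0.0688) and without the B212 E2 library (-0.44, 0.101).

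**Figure D2:**
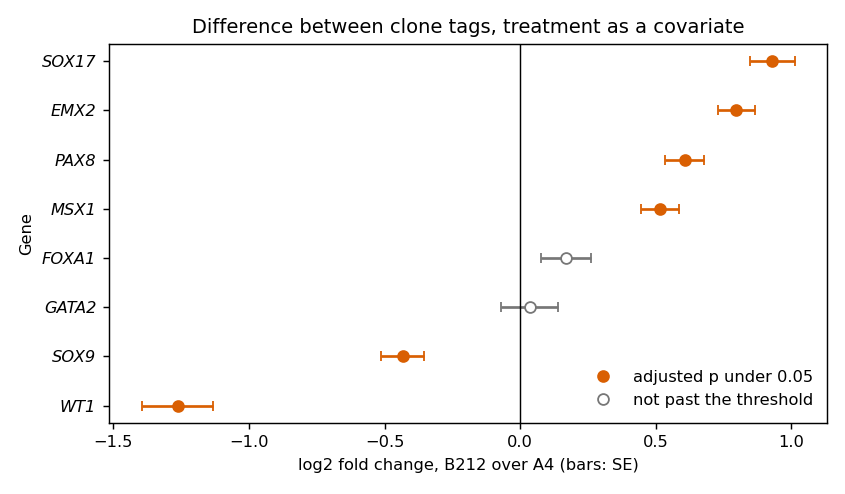
Log2 fold change of B212 over A4 for the 8 tested genes, with treatment as a covariate and bars of 1 SE. SOX17, EMX2, PAX8 and MSX1 lie right of 0, WT1 and SOX9 lie left of it, and FOXA1 and GATA2, drawn as open points, did not pass the threshold.

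The promoters of 3 of the 4 genes that were higher in B212 are shown with that of WT1, the gene with the largest difference. RefSeq windows (GRCh38.p14, 250 bases before to 50 bases after a start) were matched by symbol and searched for 7 of the 10 genes. SOX17, also higher in B212, was left out of this search, so nothing is said of its promoter. No window was at hand for SOX9 and FOXA2. The counts themselves were made on hg19. Each line runs 5′ to 3′ on the gene's own strand, and capitals mark CCAAT on either strand, so that a match on the opposite strand reads ATTGG.
PAX8 (chr2:113278872-113279171, strand -): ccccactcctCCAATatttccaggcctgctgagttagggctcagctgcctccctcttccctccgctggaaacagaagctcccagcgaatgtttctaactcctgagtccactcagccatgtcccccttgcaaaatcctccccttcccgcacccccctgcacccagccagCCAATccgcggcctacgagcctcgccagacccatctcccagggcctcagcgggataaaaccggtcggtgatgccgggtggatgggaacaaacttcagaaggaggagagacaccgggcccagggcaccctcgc
EMX2 (chr10:117542496-117542795, strand +): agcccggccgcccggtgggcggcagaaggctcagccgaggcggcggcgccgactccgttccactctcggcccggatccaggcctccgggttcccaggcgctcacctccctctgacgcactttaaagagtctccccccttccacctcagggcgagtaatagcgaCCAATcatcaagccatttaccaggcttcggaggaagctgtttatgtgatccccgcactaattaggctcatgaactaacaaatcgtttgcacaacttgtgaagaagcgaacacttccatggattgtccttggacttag
MSX1 (chr4:4859415-4859714, strand +): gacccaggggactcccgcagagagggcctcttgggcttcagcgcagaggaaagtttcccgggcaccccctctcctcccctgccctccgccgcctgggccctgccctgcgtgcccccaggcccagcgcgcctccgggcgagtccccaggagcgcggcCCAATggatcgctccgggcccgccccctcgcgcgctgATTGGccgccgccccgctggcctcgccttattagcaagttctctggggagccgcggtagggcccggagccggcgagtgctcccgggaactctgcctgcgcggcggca
WT1 (chr11:32435490-32435789, strand -): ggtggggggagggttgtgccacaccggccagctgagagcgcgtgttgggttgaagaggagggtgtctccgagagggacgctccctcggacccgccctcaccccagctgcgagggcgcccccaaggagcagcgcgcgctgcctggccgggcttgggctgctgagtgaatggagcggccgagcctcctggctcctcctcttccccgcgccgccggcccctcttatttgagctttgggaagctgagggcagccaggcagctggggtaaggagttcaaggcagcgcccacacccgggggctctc
The PAX8 window held CCAAT 2 times, at 82 and 240 bases before the start. The EMX2 window held it at 87 bases before the start. The MSX1 window held it at 94 bases before the start and, on the opposite strand, at 57. Distances are to the match's upstream end. None of the 4 WT1 windows held it, nor did those of FOXA1 and PAX2, and GATA2 had a match in 1 of its 2 windows. Among all 35116 windows of this length, 34.6% held CCAAT, and the motif was picked after the sequences had been read. The full estrogen response element GGTCANNNTGACC was in none of the 12 windows searched for these 7 genes and in 0.057% of all windows. Its single arm GGTCA, which the full element contains, was in both GATA2 windows and in 1 WT1 window, against 37.4% of all windows. The forkhead motif TGTTTAC was in that same WT1 window only (3.42% of all windows). Both strands were searched, AGATAA (10.3% of all windows) and TATAAA (11.5%) were in none of the 12, and a match is a description of the letters only.

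The next comparison asked whether E2 moves these factors in cells whose receptor is mutant. PAX8 RNA was lower with E2 in both tags, by 0.33 (A4) and 0.16 (B212) on the log2 scale, and the other 7 genes did not pass the test. Without a block, 0 of the 8 genes passed the quasi-likelihood test of edgeR, where 0.0% of all genes tested were called. At an unadjusted p under 0.05 there were 0 of the 8, and DESeq2 and limma-voom called 0 as well. Each tag has a library of both treatments, and with the tag as a replicate block edgeR called 1 of the 8, PAX8, against 9.56% of all genes tested. That share is near the background. Of all genes 6.13% were called as higher and 3.44% as lower, which is 956 and 536 with the block, and 911 and 775 when library size was the only scaling. The median log2 fold change of the 8 genes with the block was -0.078, against -0.0081 over all genes tested. For none of the 8 did the E2 libraries lie wholly above or below the DMSO libraries, as they did for 25.0% of all genes tested. For 7 of the 8 this was fixed beforehand, because their tags did not overlap. Where the tags do not overlap, the treatments must, so this count says nothing about E2 for those 7.

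The PAX8 values are given above, and within each tag the E2 library was below its DMSO partner. Counting error gave the log2 ratio a 95% interval of -0.37 to -0.30 in A4 and -0.19 to -0.14 in B212. These exact binomial intervals cover counting error only, with no spread between cultures. With the block PAX8 had a log2 fold change of -0.25 ± 0.072 (edgeR adjusted p-value 0.0358), and with no block it was -0.23 ± 0.31 (0.9999). With the block the call was lost in DESeq2 (adjusted p-value 0.0629, 3.6% of all genes called), with DESeq2 size factors in edgeR (0.0602) and with the length and GC dependence of fold changes fitted and taken out (0.191, log2 fold change -0.13, 4.62% of all genes called). The range of its edgeR, limma-voom and DESeq2 adjusted p-values over the fits with the block was 0.0159 to 0.191. DESeq2 gave some genes, FOXA1 and GATA2 among them, no adjusted p-value. The share of 3.6% counts such genes as not called, so it is not on the same footing as the edgeR shares.

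SOX9 fell short of the threshold. Its log2 ratio was -0.38 in A4 (interval -0.42 to -0.33) and -0.0038 in B212 (-0.052 to 0.044), so the A4 libraries differed and the B212 libraries were level. With the block it was -0.19 ± 0.080, with an edgeR adjusted p-value of 0.140. EMX2 and MSX1 stayed close to their DMSO level in both tags, with log2 ratios of -0.039 and -0.052 (EMX2) and 0.022 and 0.015 (MSX1) in A4 and B212. With the block, EMX2 had -0.046 ± 0.068 and MSX1 0.018 ± 0.070, and neither passed the test (edgeR adjusted p-values 0.726 and 0.901).

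SOX17 had a log2 ratio of -0.14 in A4 (-0.22 to -0.066) and 0.17 in B212 (0.11 to 0.22). The tags thus had opposite signs, and the value with the block was 0.018 ± 0.082 (edgeR adjusted p-value 0.920). GATA2 had -0.27 in A4 (-0.42 to -0.13) and 0.0036 in B212 (-0.14 to 0.14). WT1 had -0.31 in A4 (-0.47 to -0.15) and 0.14 in B212 (-0.10 to 0.39). FOXA1, the receptor's known partner, had -0.060 in A4 and 0.0086 in B212, and both intervals included 0. In A4, 5 of the 8 genes had an interval wholly below 0, and in B212 only PAX8 and EMX2 did. The share of all genes tested with such an interval was not worked out. The intervals cover counting error only, so these counts are descriptions. The lowest ratio was that of SOX9 in A4 and that of PAX8 in B212.

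**Figure D3:**
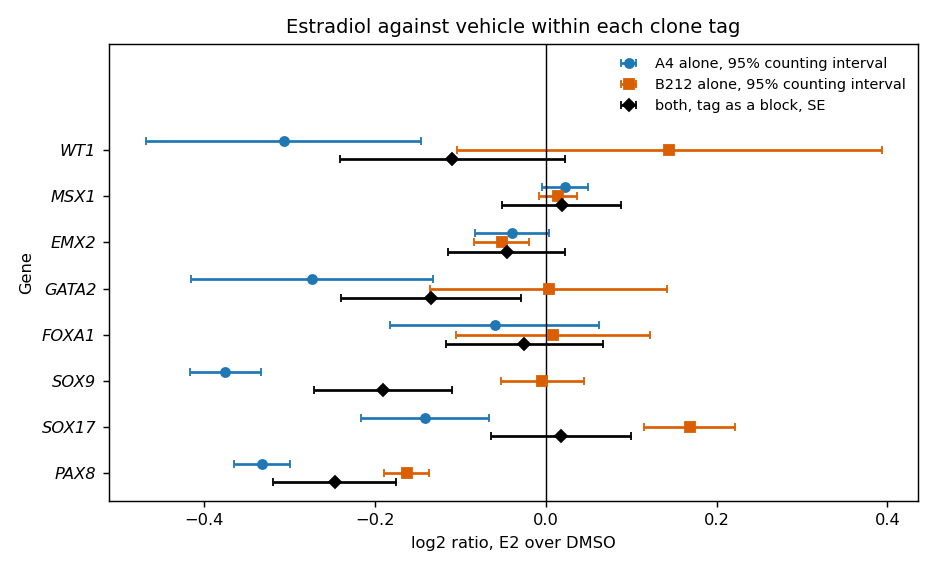
Log2 ratio of E2 over DMSO for each of the 8 tested genes in A4 alone and B212 alone, with 95% counting intervals, and from the fit to both with the tag as a block, with 1 SE. Both PAX8 intervals lie wholly left of 0, that of SOX9 does so in A4 and includes 0 in B212, and those of SOX17 lie on opposite sides.

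Noncoding genes lie beside or across several of these factors. GENCODE places PAX8-AS1, EMX2OS, GATA2-AS1, SOX9-AS1 and WT1-AS on the opposite strand from their namesakes. Exons overlap by 685 bases (PAX8), 255 (EMX2) and 113 (WT1), and by 0 for GATA2 and SOX9, where the gene spans alone overlap. The library kit keeps strand, but the strand setting of the counting is not given in the sources used here. Where exons overlap, reads of the partners may therefore not be separated.

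PAX8-AS1 had 4.44 CPM with DMSO and 6.41 CPM with E2 in A4, against 14.5 and 18.8 CPM in B212. It was higher with E2 in both tags while PAX8 was lower. Its log2 ratios were 0.53 in A4 (0.33 to 0.73) and 0.37 in B212 (0.26 to 0.49). With the block PAX8-AS1 rose by 0.44 ± 0.10 (edgeR adjusted p-value 0.0126), and it was called in each of the other edgeR and limma-voom fits with the block, while DESeq2 gave it no adjusted p-value. For every 100 PAX8 counts there were 2.02 PAX8-AS1 counts with DMSO and 3.68 with E2 in A4, and 4.61 and 6.69 in B212. None of the other noncoding genes was called for E2.

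Between the tags, 4 of the 5 tested noncoding genes were called, all higher in B212 where 25.2% of all genes tested were, with a median log2 fold change of 1.63 over the 5. EMX2OS was higher by 1.98 ± 0.13 and PAX8-AS1 by 1.63 ± 0.11, which exceeds the difference of their coding partners. GATA2-AS1 was higher by 1.40 ± 0.11, while GATA2 itself did not pass the test. There were 40.6 and 47.5 GATA2-AS1 counts per 100 GATA2 counts in the A4 pair (DMSO, then E2) and 116 and 111 in that of B212. SOX9-AS1 was higher by 1.73 ± 0.28, while SOX9 was lower, but it rests on 23 to 129 counts. WT1-AS, with 13 or 14 counts in every library, had a log2 fold change of 0.021 ± 0.47. The largest edgeR adjusted p-value of the 4 called was that of SOX9-AS1, 3.95e-05. LINC00261, the noncoding neighbour of FOXA2, had 0 counts in every library, as FOXA2 did.

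**Figure D4:**
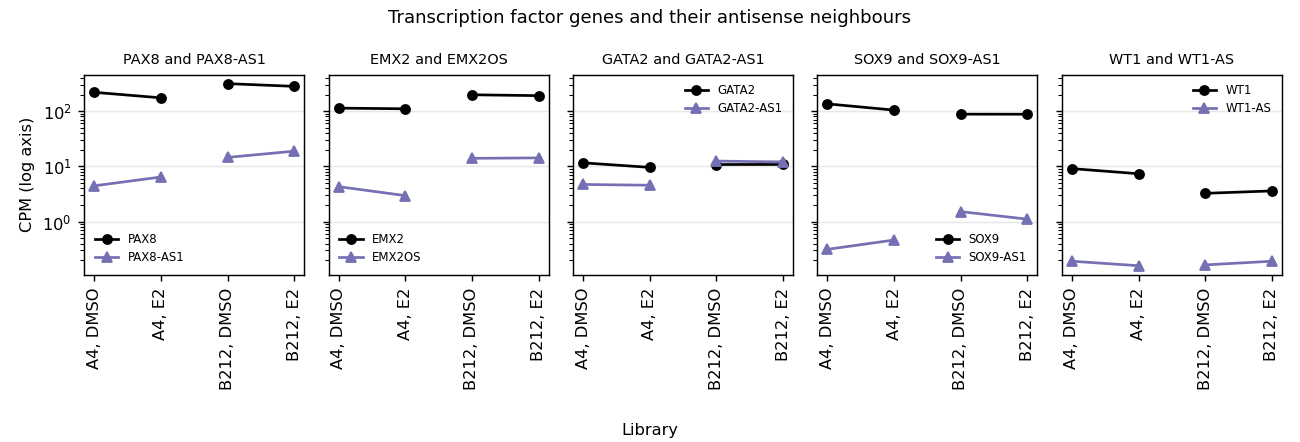
CPM on a log axis of PAX8, EMX2, GATA2, SOX9 and WT1 (circles) and of the antisense gene of each (triangles) in the 4 libraries, with a line joining the DMSO and E2 library of a tag. PAX8-AS1 climbs with E2 in both tags while PAX8 falls, and GATA2-AS1 passes GATA2 in B212.

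Among the family paralogs, 8 of 15 tested genes were called between the tags, 7 higher and 1 lower in B212, with a median log2 fold change of 0.18. That is 53.3% of them, near the 51.0% of all genes tested. SOX6, a SOX gene of the D group, had 225 and 189 counts in A4 and 2366 and 1686 in B212, which was 3.24 ± 0.11 on the log2 scale (edgeR adjusted p-value 2.77e-15). EGR1, an immediate early zinc finger factor, was higher by 1.66 ± 0.097. GATA6 was higher by 1.03 ± 0.27 and lost its call in DESeq2 (adjusted p-value 0.0916), and in edgeR without the A4 E2 library (0.0565) or the B212 E2 library (0.197, log2 fold change 0.69). For E2, edgeR called 0 of these 15 with no block (0 at an unadjusted p under 0.05). With the block 3 were called, against 9.56% of all genes tested. EGR3 rose by 1.02 ± 0.18 (edgeR adjusted p-value 0.00241). SOX4 and SOX13, named after their values were seen because the count is small, fell by 0.40 and 0.29 on the log2 scale.

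Of 33 other Mullerian and epithelial transcription factors, 29 were tested and 20 were called between the tags, 18 higher and 2 lower in B212. That is 69.0% of them, against 51.0% of all genes tested. Their median log2 fold change was 0.38, near that of the 8 tested genes of the main list. FOXJ1, the factor of ciliated cells, was higher by 1.69 ± 0.12 and EHF, an epithelial ETS factor, by 1.49 ± 0.084. TFAP2C (1.36 ± 0.12), TFAP2A (1.27 ± 0.13), TP63 (1.31 ± 0.19) and LEF1 (1.26 ± 0.20) were higher as well. Without the A4 E2 library TP63 had 0.86. KLF4 was lower, with a log2 fold change of -1.04 ± 0.15. Among these 7, LEF1 had the largest edgeR adjusted p-value, 2.91e-05. With the block, edgeR called 5 of the 29 for E2, 1 higher and 4 lower, and those given here were named after their values were seen. That is 17.2% of them, against 9.56% of all genes tested. FOXJ1 fell by 0.64, TP63 fell by 0.68 and KLF5 fell by 0.26 on the log2 scale, and EHF rose by 0.30. With no block edgeR called 0 of the 29 (0 at an unadjusted p under 0.05).

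Signals that act with these factors in the uterine epithelium differed in both directions. Of 25 genes listed, 17 were tested, and 6 were higher and 6 lower in B212. That is 70.6% called, against 51.0% of all genes tested. FGFR2, the epithelial receptor for fibroblast growth factors, was higher by 1.73 ± 0.078 and NKD1, a WNT feedback gene, by 1.36 ± 0.15. PGR, the progesterone receptor, was lower, with a log2 fold change of -2.67 ± 0.14, which was -2.01 without the B212 DMSO library and -3.46 without the B212 E2 library. GLI1, a target of hedgehog signalling, had -1.54 ± 0.14, and LIF, the cytokine that FOXA2 is known to control in mouse glands, had -1.17 ± 0.20. Among these 5, LIF had the largest edgeR adjusted p-value, 5.32e-05. IHH had at most 1 count and WNT4 4 to 10 counts in a library. With the block, E2 moved 3 of the 17, against 9.56% of all genes tested. WNT11 rose by 1.00 ± 0.24 and PGR, named after its values were seen, rose by 0.90 ± 0.14, while FGFR2, likewise named afterwards, fell by 0.55. The PGR ratio was 0.48 in A4 and 1.47 in B212 on the log2 scale, and that difference was not tested. With no block edgeR called 0 of them, and 1 had an unadjusted p under 0.05.

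Markers of other cell types moved with the tags too. Of 8 tested stromal and mesenchymal markers, 0 were higher and 6 lower in B212, with a median log2 fold change of -1.52. Over all genes tested, 25.2% were called higher and 25.8% lower. The summed level of the whole stromal list was 155 CPM with DMSO and 117 CPM with E2 in A4, against 58.1 and 50.9 CPM in B212. Most of that sum was COL1A1, with 128 and 92.4 CPM in A4 and 42.4 and 34.5 CPM in B212. Of the 10 epithelial markers 6 were higher and 0 lower in B212, with summed levels of 2415 and 2317 CPM in A4 and 3019 and 2757 CPM in B212. That is 60% of them called, against 51.0% of all genes tested. WT1 was thus lower in B212 together with the stromal list, and PAX8, SOX17, EMX2 and MSX1 were higher together with the epithelial list, while SOX9 was lower (-0.43). The part of either list in those differences was not tested. CDH1 and MUC1 stand in both the epithelial and the signal list.

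**Figure D5:**
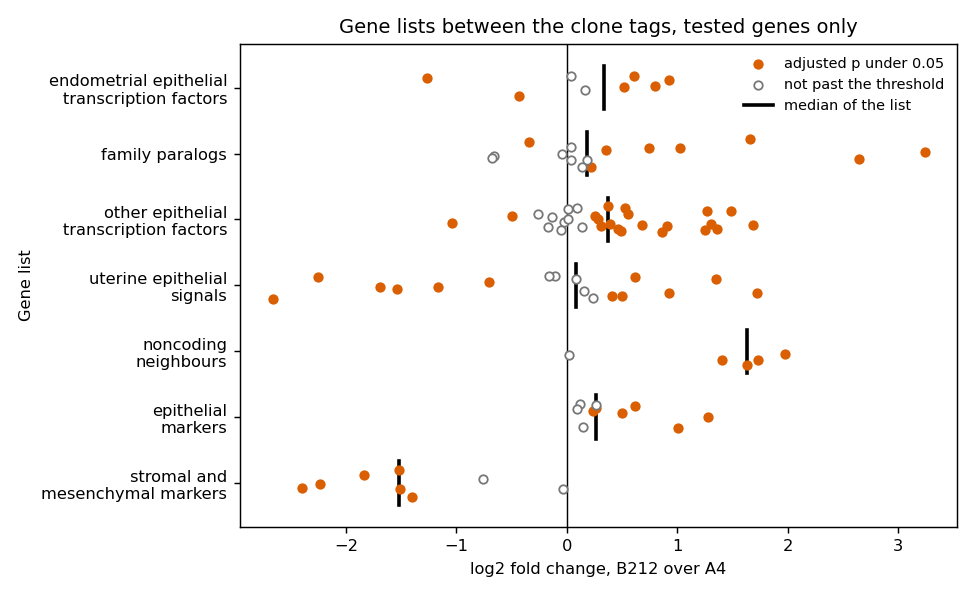
Log2 fold change of B212 over A4 for every tested gene of 7 lists, with filled points for genes past the threshold and a black bar at the median of each list. The medians are 0.34 for the endometrial epithelial factors, 0.38 for the other epithelial factors, 1.63 for the noncoding neighbours and -1.52 for the stromal and mesenchymal markers.

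The gene with the most similar pattern was found for each of the 8 tested genes, among 13398 genes with a mean of at least 50 counts. The measure was the Euclidean distance between log2 CPM values centred on their mean over the 4 libraries. PAX8 was closest to MUC1 (distance 0.028), SOX17 to TBCK (0.032), EMX2 to HES4 (0.012) and MSX1 to EXOC3-AS1 (0.014). FOXA1 was closest to ARNT (0.011), GATA2 to CDK20 (0.024), SOX9 to ADARB1 (0.048) and WT1 to ZNF503 (0.098). With 4 libraries and this many candidates a near match is easily had, and these distances are descriptions.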

How the data were processed

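Counts for the 4 libraries were deposited as raw whole-number read counts per gene symbol. Per the submitters' processing notes, HISAT2, SAMtools, featureCounts and DESeq2 were used with hg19; their order, versions, annotation and strand setting are not given in the sources used here. Libraries were stranded and made from poly(A) RNA (500 ng each), per the labels' protocols. A further 4 value columns could be matched to none of the samples and were left aside. Columns were grouped by the treatment in their names.

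Genes were kept by filterByExpr of edgeR 4.0.16 (minimum count 10), scaled by TMM and tested by its quasi-likelihood test over all 15599 genes, calls being made at 0.05 after Benjamini-Hochberg adjustment. Each SE is the size of the log2 fold change over the square root of its F. E2 was compared with no block. A second fit, blocked by tag, is printed where it changes a call and for several genes where it does not. The clones named in the labels pair the libraries, and the pairing by tag comes from the column names: deviations of same-tag libraries from their group means correlated across genes (Pearson r = 0.871). Tags were compared with treatment in the model. Log2 CPM had a prior count of 2. Transcript lengths are those of the longest GENCODE 29 transcript of a symbol, a coding one where there was one, found for 93.5% of tested genes. Named genes of the lists were called, averaged 50 counts or more and differed by 1 or more on the log2 scale, up to 8 per list by p-value. The transcription factors and lists were chosen with earlier results of these data known. Alternatives used DESeq2 1.42.0, limma 3.58.1 and mgcv 1.9.3 in R 4.3.3; figures used Python 3.11.15 and matplotlib 3.10.9. Scripts were tested on simulated data. Values of some listed genes are not reported here.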

Additional observations from a re-analysis of the deposited data

Results flagged for a closer look

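Among the 8 tested transcription factors and their 5 tested noncoding neighbours, 7 genes were noted because the log2 ratio of E2 over DMSO had opposite signs in A4 and B212. The genes of the other lists were not searched for this. How often signs were opposite over all genes tested was not worked out, so the count of 7 is a description only. These differences, B212 minus A4, were not tested, since each tag has 1 library per treatment. They were 0.31 (SOX17), 0.068 (FOXA1), 0.28 (GATA2), 0.45 (WT1), 0.49 (WT1-AS), 0.57 (EMX2OS) and -1.01 (SOX9-AS1). For SOX17 the counting intervals of the tags lay on opposite sides of 0. For WT1 and GATA2 the A4 interval lay below 0 and the B212 interval included it. For EMX2OS the A4 ratio was -0.54 (-0.79 to -0.29) and the B212 ratio 0.026 (-0.096 to 0.15). For SOX9-AS1 the A4 ratio was 0.56 (-0.22 to 1.37) and the B212 ratio -0.45 (-0.87 to -0.040). Both intervals included 0 for FOXA1 and for WT1-AS, whose counts were 13 or 14 in every library.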

How the results depend on the processing

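The E2 comparison depended on the replicate block. Of the 8 tested genes, edgeR called 0 with no block and 1 (PAX8) with the tag as replicate block, a count of 1 that was the same with limma-voom, library size only, at least 10 counts in every library, and no filter. With the block it was 0 in DESeq2, with DESeq2 size factors and with the trend on length and GC taken out. In that DESeq2 fit FOXA1, GATA2 and WT1 were given no adjusted p-value, so they could not be called. Over all genes 0 were called with no block (1 in DESeq2). With the block the counts were 1492 (edgeR), 562 (DESeq2), 1138 (limma-voom), 717 (DESeq2 size factors), 1686 (library size only), 721 (trend removed), 1560 (at least 10 counts) and 1770 (no filter). The list counts went from 0 to 3 (paralogs), 5 (other factors), 3 (signals) and 1 (noncoding neighbours) with the block. Between the tags, 6 of the 8 genes were called, 1 of them (WT1) past 1 on the log2 scale, and 3 to 6 when a library was left out. Over all genes 7950 were called, 4456 with no treatment term, 1723 past 1 on the log2 scale, and 3094 to 5639 when a library was left out (5113 without A4 E2, 3207 without B212 E2). That last fit had no treatment term and was chosen after seeing the data. The median level of the 8 genes went from 24.7 to 55.6 CPM per kilobase with coding length. Signs turned for SOX17 with E2 (-0.0029 in limma-voom, and -0.0022 with the block and library size only), MSX1 with E2 (-0.0016, likewise), WT1-AS with E2 (0.033 with the block and trend removed) and WT1-AS between tags (-0.00021 with no filter). The cause was not tested. Leaving out a library unbalances the tags, and the E2 log2 fold change with no block then ranged from -0.62 to 0.057 (PAX8), -0.58 to 0.49 (SOX17), -0.49 to 0.13 (SOX9), -0.13 to 0.057 (FOXA1), -0.50 to 0.41 (EMX2), -0.26 to 0.30 (MSX1), -0.80 to 0.75 (WT1), -0.16 to 0.089 (WT1-AS), -1.63 to 0.99 (EMX2OS), -0.57 to 1.50 (PAX8-AS1), -0.92 to 0.81 (GATA2-AS1) and -0.98 to 1.31 (SOX9-AS1). Between tags it ranged from -0.11 to 0.17 (GATA2) and -0.12 to 0.16 (WT1-AS, -0.086 without B212 E2). E2 calls over all genes were 0 to 0 when a library was left out. Depth limits PAX2, FOXA2, WT1-AS and SOX9-AS1.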
